A study of Mus musculus with 12 samples.

Results

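The 9 genes described here cover iron uptake, iron storage, iron sensing and heme synthesis, and were followed by RNA-seq in FL5.12 cells expressing MycER. They were chosen by name, by a rule that uses no measured value but was set with earlier results of these data known, and make up 9 of the 21671 genes in the deposited table: Tfrc and Slc11a2 (uptake), Fth1 and Ftl1 (storage), Aco1 and Ireb2 (regulation), and Alas1, Cpox and Fech (heme synthesis). FL5.12 is an established mouse prolymphocytic line of BALB/c origin that depends on interleukin 3, and all 12 libraries came from cells carrying a retrovirally expressed chimera of Myc and a modified estrogen receptor, which 4-hydroxytamoxifen (OHT) switches on. The carriers were a transduced population selected with an antibiotic, and libraries of OHT-treated cells without MycER were not analysed here, so that an effect of OHT itself and of MycER cannot be told apart. There were 4 conditions with 3 libraries each: untreated cells, cells kept in 100 nM OHT for 72 h (OHT), cells given 135 nM of the complex I inhibitor IACS-010759 for 24 h without OHT (IACS), and OHT-primed cells given 135 nM IACS-010759 for the last 24 h of 72 h in OHT (OHT_IACS). The questions were how MycER activation, the block of respiration, and the 2 together changed the transcripts through which a cell takes up, stores and uses iron.

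Iron reaches most dividing cells bound to transferrin, which the transferrin receptor, made from Tfrc, carries into endosomes. There the iron is reduced and leaves through the divalent metal transporter encoded by Slc11a2. Iron not needed at once is kept in ferritin, a shell of heavy (Fth1) and light (Ftl1) chains, and much of the rest goes to mitochondria for heme and iron-sulfur clusters. The balance is set largely after transcription. When iron is scarce, the iron regulatory proteins made from Aco1 and Ireb2 bind a stem-loop, the iron-responsive element. Bound in the 5′ untranslated region (UTR) of ferritin transcripts it stops translation, and bound in the 3′ UTR of Tfrc it protects the transcript from decay. RNA-seq reads the second effect as transcript level and does not read the first. Heme synthesis begins with Alas1, the housekeeping 5-aminolevulinate synthase, passes through Cpox, coproporphyrinogen oxidase, and ends with Fech, ferrochelatase, which inserts the iron.

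The iron-responsive elements are shown because they are the sites through which iron regulatory proteins act on the Tfrc, Fth1 and Ftl1 transcripts. UTRs of coding transcripts in GENCODE vM21 (GRCm38) were searched for the letters CNNNNNCAGTGN, followed by bases that pair with the 5 before the loop (Watson-Crick or G with U). Coordinates are those of the annotation, not of the authors' alignment to mm9. Capitals mark the 6 bases of the loop, and 5 bases on each side of the 17-base stem-loop are included.
Fth1 5′ UTR, chr19:9982733-9982759, + strand: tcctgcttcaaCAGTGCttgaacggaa
Ftl1 5′ UTR, chr7:45459780-45459806, - strand: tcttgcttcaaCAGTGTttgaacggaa
Tfrc 3′ UTR, the first, chr16:32631220-32631246, + strand: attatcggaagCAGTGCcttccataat
Tfrc 3′ UTR, the second, chr16:32631599-32631625, + strand: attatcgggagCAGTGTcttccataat
Tfrc 3′ UTR, the third, chr16:32631664-32631690, + strand: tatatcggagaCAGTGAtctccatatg
Tfrc 3′ UTR, the fourth, chr16:32631711-32631737, + strand: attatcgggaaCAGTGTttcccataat
A match was present in the 5′ UTR of 31 of 21842 coding genes (0.142%) and in the 3′ UTR of 129 (0.591%). No match with these letters lay in the UTRs of Slc11a2, Aco1, Ireb2, Alas1 or Cpox. An isoform of Slc11a2 is known to carry such an element in its 3′ UTR, which this pattern did not find. Since the pattern asks for 5 unbroken pairs, the sites listed for Tfrc may likewise not be all of its elements. In the RefSeq promoters (GRCm38.p6, 250 bases before to 50 after each start) of the 7 members in that table, neither the E-box CACGTG nor the antioxidant response element core TGACNNNGC was found on either strand, beside 7.15% and 12.4% of all 32851 promoters.

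Levels are given as RPKM, reads scaled by the length of the gene and by the total of the library, as deposited. On this per-length scale Ftl1 (mean of the 12 libraries 72.1 RPKM), Fth1 (69.6 RPKM) and Tfrc (54.8 RPKM) ranked 127, 147 and 351 among all genes. The highest value of any gene was only 119.4 to 167.1 RPKM, depending on the library, and reads of densely covered genes levelled off, as given below. The top of this scale may therefore be compressed, so these ranks and the closeness of these levels may not reflect abundance, which was not tested. Alas1 (10.1 RPKM), Cpox (7.81 RPKM), Slc11a2 (5.09 RPKM), Fech (4.81 RPKM) and Ireb2 (4.79 RPKM) lay near the middle of the genes above 0, at percentiles 55.5 to 70.7. Aco1 was not measured: its values ran from 0 to 0.133 RPKM, from 0 to 8 reads per library, and it did not pass the filter, which asked for 1 RPKM or more in 3 or more libraries. In untreated cells the libraries of Fth1 and Tfrc overlapped (means 56.8 and 56.4 RPKM), while in IACS and OHT_IACS every Fth1 value was above every Tfrc value. The means of Ftl1 were above those of Fth1 in 3 conditions, and in OHT_IACS Fth1 was the higher (81.4 against 76.3 RPKM), with no overlap of libraries.

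The libraries had totals of 10376530 to 14550158 reads, of which 4199265 to 5762339 lay on genes, and 2 of the 3 OHT libraries were the smallest (replicate 1, 10376530, and replicate 3, 10770476, beside 13956222 for replicate 2). Reads of the most densely covered genes did not grow in proportion to these totals. Within conditions the slope of log reads on log total, which is 1 for proportional reads, was a median of 1.39 for genes under 0.1 reads per base, 0.51 for genes at 0.6 to 1 and 0.18 for genes over 1. It was 0.15 for Ftl1, 0.39 for Fth1 and 0.49 for Tfrc, but 1.91 for Slc11a2, 1.84 for Ireb2, 1.5 for Alas1, 1.33 for Fech and 1.14 for Cpox. For this reason the differences of the members that involve the OHT group, and those of other named genes, are given with the library total as a covariate and without OHT replicates 1 and 3 where either changes the call.

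**Figure D1:**
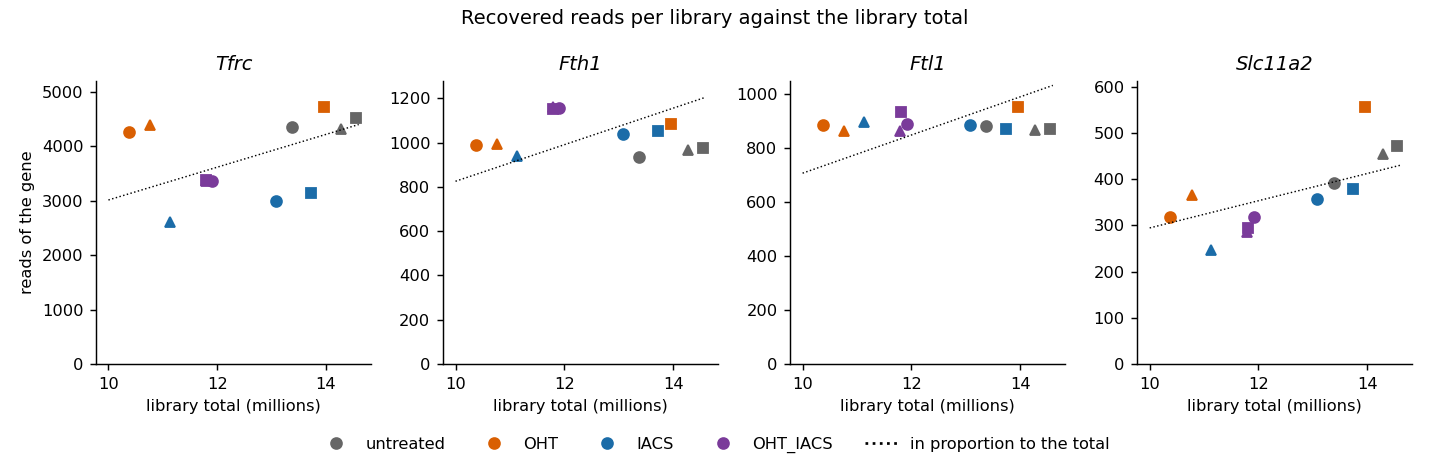
Reads of Tfrc, Fth1, Ftl1 and Slc11a2 in each library (vertical axis) against the library total (horizontal axis); colours are the 4 conditions, shapes the replicates, and the dotted line is proportion to the total. Reads of Ftl1 stayed between 862 and 952 over the whole range of totals, and the 3 IACS libraries and 3 OHT_IACS libraries had the lowest reads of Tfrc, 2619 to 3387.

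Cell identity was checked with markers. Of 10 listed B-lineage precursor markers 5 had a mean of at least 1 RPKM (Ptprc, Csf2rb, Il3ra, Cd79b and Cd79a), Cd79a at 0.511 to 1.59 RPKM. Pax5 and Rag1 were at 0 in every library, and Ebf1, Igll1 and Vpreb1 were near 0, at most 0.0148, 0.0318 and 0.376 RPKM. These markers thus did not bear out a B-lineage identity as a set. Erythroid genes bear on iron, since red cell precursors are its largest users. Of the 6 erythroid genes in the table, Gata1, Klf1, Epor, Hba-a2 and Hbb-b1 were at 1 RPKM or more on average, whereas Alas2, the erythroid 5-aminolevulinate synthase, was near 0 (0.0938 to 0.378 RPKM). Klf1, an erythroid transcription factor, had means of 13.3 RPKM in untreated cells, 9.53 in OHT, 6.96 in IACS and 5.1 in OHT_IACS. Epor, the erythropoietin receptor, went from 1.74 to 1.61, 1.36 and 1.07 RPKM in the same order, whereas the globin genes Hbb-b1 (0.861, 1.47, 1.47 and 2.1) and Hba-a2 (1.61, 1.63, 1.37 and 2.12) and Gata1 (27.1, 32.2, 28.7 and 29.7) had no mean in OHT_IACS below that in untreated cells. The summed level of the erythroid list was 44.4 to 45.3 RPKM in untreated libraries, 45.3 to 48.7 in OHT, 36.2 to 42.7 in IACS and 40.1 to 40.4 in OHT_IACS. That of 8 macrophage and myeloid genes was 35.7 to 37.9, 33.4 to 39.1, 36.6 to 41.7 and 41.7 to 43.9 RPKM, and that of the B-lineage list 69.2 to 71.8, 69.0 to 73.5, 71.5 to 72.5 and 74.9 to 77.6 RPKM. The myeloid genes moved in different directions. In the same order the means of Emr1 were 16.6, 20.6, 21.0 and 27.4 RPKM, and those of Cd68 4.73, 4.5, 4.37 and 5.28. Means of Mpo were 12.8, 10.2, 11.4 and 9.1 RPKM, of Lyz2 1.76, 0.407, 1.74 and 0.53, and of Itgam 0.847, 0.312, 1.02 and 0.342. The part of these shifts in the results below was not tested. In bulk RNA, fewer cells with a transcript and less of it per cell cannot be told apart. Endogenous Myc, from whose transcript reads of the chimera were not separated here, averaged 36.3 RPKM in untreated cells, 21.0 in OHT, 46.8 in IACS and 30.3 in OHT_IACS.

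Of the 9 members, 8 were tested, with limma on log2(RPKM + 0.1) over all 9745 genes that passed the filter and Benjamini-Hochberg adjustment at 0.05. With OHT, 4 of 8 rose and none fell (Tfrc, Fth1, Ftl1 and Cpox), where 36.4% of all genes were called, 18.1% higher and 18.2% lower. With IACS-010759 in nonprimed cells, 2 of 8 fell and none rose (Tfrc and Slc11a2), where 15.9% of all genes were called, 8.15% higher and 7.74% lower. With IACS-010759 in OHT-primed cells, 4 of 8 fell and none rose (Tfrc, Slc11a2, Ireb2 and Cpox), beside 23.7% of all genes, 11.9% higher and 11.7% lower. Between OHT_IACS and IACS, Tfrc and Fth1 were higher and Ireb2 was lower, 3 of 8, beside 26.5% of all genes, 12.3% higher and 14.2% lower. The median log2 fold changes of the 8 were 0.16, 0.0, -0.18 and 0.03, and those of all genes 0.013, 0.004, -0.014 and -0.003. No member was called by the interaction, the test of whether OHT priming altered the response to IACS-010759, in limma on RPKM or in limma voom on the recovered reads, and 1 (Ireb2) had an unadjusted p under 0.05 in each. At an unadjusted p under 0.05 there were 3 members with quantile normalization and 5 with the library total as a covariate, again with 0 called. The interaction called 0.144% of all genes. The comparisons with a shared group are not independent: the OHT libraries enter 2 of these comparisons, as do the untreated, IACS and OHT_IACS libraries.

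**Figure D2:**
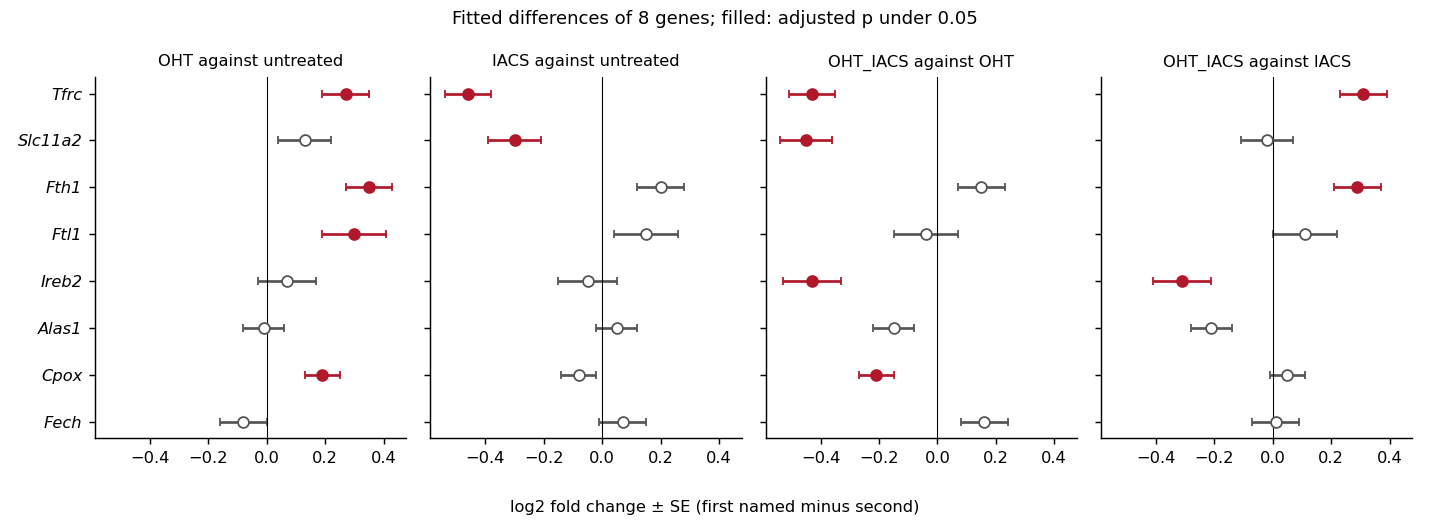
Log2 fold change with its SE (horizontal axis) of the 8 tested genes in 4 comparisons, the group named first minus the second; filled red points passed the adjusted threshold of 0.05. Tfrc is filled in all 4 panels, from -0.46 to 0.31, and Alas1 and Fech are open in all 4.

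Tfrc (chr16:32608920-32632794) fell with IACS-010759 whether or not the cells were primed, and was higher in OHT-primed than in nonprimed cells. Its RPKM was 58.8, 56.1 and 54.4 in the untreated libraries, 74.0, 61.1 and 73.6 in OHT, 41.3, 41.4 and 42.4 in IACS, and 51.1, 51.7 and 51.4 in OHT_IACS. Every library with the inhibitor was below every library without it, the groups did not overlap in any of the 4 comparisons, and the 2 high OHT values were those of the small libraries. In nonprimed cells Tfrc fell by 0.46 on the log2 scale (SE 0.08, to 0.73 of the untreated level, limma adjusted p = 0.0015), a fall kept under all 17 other settings tried. In OHT-primed cells it fell by 0.43 (SE 0.08, limma adjusted p = 0.0018), and with the library total as a covariate by 0.41 (limma adjusted p = 7.3e-06). Without OHT replicates 1 and 3, which leaves the single OHT library of full depth, the fall was 0.23 and no longer passed (limma adjusted p = 0.054). The interaction for Tfrc was 0.03 (SE 0.11, limma adjusted p = 0.92).

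The rise of Tfrc with OHT was less firm. It was 0.27 (SE 0.08, limma adjusted p = 0.014) over all libraries, but 0.09 with the library total as a covariate (limma adjusted p = 0.13) and 0.07 without OHT replicates 1 and 3 (limma adjusted p = 0.47). Leaving out single libraries gave 0.24 without untreated replicate 3, 0.21 without OHT replicate 1 and 0.24 without OHT replicate 3, with limma adjusted p-values of 0.062, 0.052 and 0.058. The difference between OHT_IACS and IACS, which involves no OHT library, was 0.31 (SE 0.08, limma adjusted p = 0.01), was 0.25 with the covariate (limma adjusted p = 0.00025), and passed in all 17 other settings. In reads, Tfrc counted 2619 to 3153 per library in IACS and 3359 to 3387 in OHT_IACS, beside 4312 to 4523 in untreated cells.

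Slc11a2, which moves ferrous iron across the endosomal and cell membranes into the cytosol (chr15:100387898-100425072), also fell with IACS-010759. Its RPKM was 5.09, 5.65 and 5.54 in untreated cells, 5.35, 6.95 and 5.91 in OHT, 4.76, 4.82 and 3.86 in IACS, and 4.65, 4.33 and 4.21 in OHT_IACS. Every library with the inhibitor was below every library without it. In OHT-primed cells Slc11a2 fell by 0.45 (SE 0.09, to 0.73 of the OHT level, limma adjusted p = 0.0037), in all 18 other settings with limma adjusted p-values of at most 0.017. In nonprimed cells the fall was 0.3 (SE 0.09, limma adjusted p = 0.036) and was close to the threshold. It failed in 8 of 17 other settings, among them the covariate (a fall by 0.18, limma adjusted p = 0.063) and the omission of any untreated library, of IACS replicate 1 or of IACS replicate 3 (falls by 0.22 to 0.34, limma adjusted p-values 0.053 to 0.14). OHT gave 0.13 (SE 0.09, limma adjusted p = 0.28) and, with the covariate, 0.34 (limma adjusted p = 0.0056). The transporter had few reads, 247 to 557 per library.

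Fth1 (chr19:9980598-9985098) was highest in OHT_IACS and lowest in untreated cells. Its RPKM was 58.3, 55.7 and 56.4 in untreated cells, 79.3, 64.6 and 77.0 in OHT, 66.0, 63.9 and 70.3 in IACS, and 80.7, 81.3 and 82.0 in OHT_IACS. Every treated library was above every untreated one, and the OHT_IACS libraries were above all others. With OHT the gene rose by 0.35 on the log2 scale (SE 0.08, 1.27-fold, limma adjusted p = 0.0064), and with the covariate by 0.14 (limma adjusted p = 0.0078). Without OHT replicates 1 and 3 the value was again 0.14, but did not pass (limma adjusted p = 0.21). Against IACS alone, Fth1 was 0.29 higher in OHT_IACS (SE 0.08, limma adjusted p = 0.021) and 0.23 higher with the covariate (limma adjusted p = 6.2e-05). That call was lost without IACS replicate 1 or 2, or without OHT_IACS replicate 1 or 3, at values of 0.25 to 0.29 and limma adjusted p-values of 0.057 to 0.087.

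The response of Fth1 to the inhibitor itself did not pass in the main fit. It was 0.2 (SE 0.08, limma adjusted p = 0.12) in nonprimed and 0.15 (SE 0.08, limma adjusted p = 0.22) in OHT-primed cells, although in either case all libraries with the inhibitor were above those without it. With the library total as a covariate both passed, at 0.09 (limma adjusted p = 0.049) and 0.17 (limma adjusted p = 0.00049). Both also passed with quantile normalization, at 0.16 (limma adjusted p = 0.00022) and 0.18 (limma adjusted p = 6.5e-05). The value in nonprimed cells also passed on RPKM as deposited (0.23, limma adjusted p = 0.04) and in limma voom on the recovered reads (0.2, adjusted p = 0.043). Most other settings gave no call in either case. Without OHT replicates 1 and 3 the value in primed cells was 0.35. That omission does not even out the totals, since the 1 OHT library left had 13956222 reads and the OHT_IACS libraries 11792608 to 11913079. Reads are not divided by the library total, although those of Fth1 still grew with it within conditions (slope 0.39). Fth1 had 937 to 974 reads in the untreated libraries and 1153 to 1162 in OHT_IACS, from smaller libraries. Fth1 and Ftl1 have near-identical copies elsewhere in the mouse genome, and how reads shared with them were assigned is not given in the sources used here, so their levels are uncertain to that extent.

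Ftl1 (chr7:45457944-45459884) was called with OHT only. Its RPKM was 66.4, 60.3 and 61.1 in untreated cells, 86.0, 68.8 and 80.8 in OHT, 68.3, 63.9 and 81.0 in IACS, and 75.3, 79.8 and 73.8 in OHT_IACS. In IACS the high value was that of replicate 3, the smallest library of its group (a total of 11133789), and in OHT the high values were those of replicates 1 and 3. The rise with OHT was 0.3 (SE 0.11, limma adjusted p = 0.043), and it did not pass in 10 of 18 other settings. With the covariate it was 0.03 (limma adjusted p = 0.75), and without OHT replicates 1 and 3 it was 0.09 (limma adjusted p = 0.64). The omission of any library but OHT replicate 2 also ended the call, at values of 0.21 to 0.35 and limma adjusted p-values of 0.051 to 0.16. In the other 3 comparisons the log2 fold changes were 0.15, -0.04 and 0.11 with limma adjusted p-values of 0.38 to 0.85. Ftl2, a retrogene copy of Ftl1 listed separately, counted 282 to 326 reads.

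The ratio of Fth1 to Tfrc within a library does not contain the library total, although it still contains the unequal slopes of the pair on it. Fth1, Tfrc and Ftl1 had 0.86, 0.68 and 0.9 reads per base, a range in which reads levelled off. The sizes of ratios among them may therefore be compressed, which was not tested. For Fth1 to Tfrc the values follow. This ratio was 0.99, 0.99 and 1.04 in untreated cells and 1.07, 1.06 and 1.05 in OHT. It was 1.6, 1.54 and 1.66 in IACS and 1.58, 1.57 and 1.6 in OHT_IACS. All 6 libraries with IACS-010759 thus lay above all 6 without it, and IACS and OHT_IACS overlapped. The ratio was formed after the values were seen and was given no test. The ratio of Ftl1 to Fth1 averaged 1.1 ± 0.03 (SD, n = 3) in untreated cells, 1.07 ± 0.02 in OHT, 1.06 ± 0.08 in IACS and 0.94 ± 0.04 in OHT_IACS, all libraries of the last being below those of the other conditions.

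**Figure D3:**
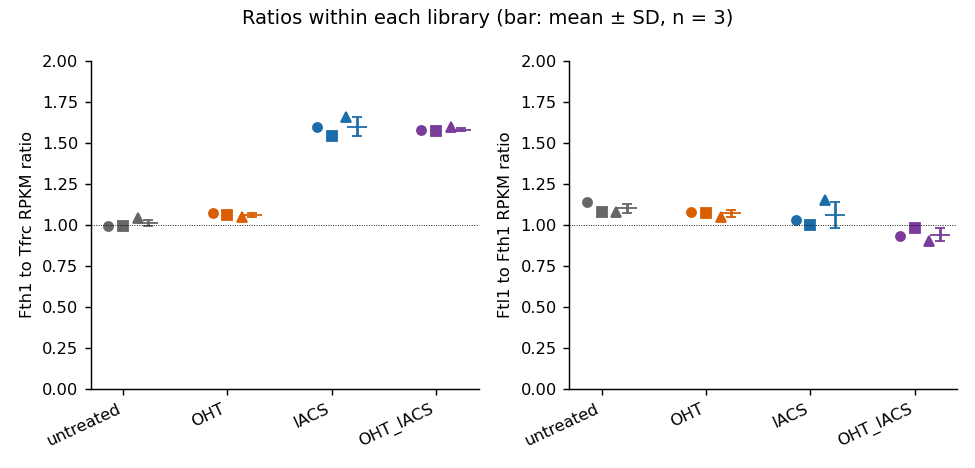
Ratio of Fth1 to Tfrc RPKM (left panel) and of Ftl1 to Fth1 RPKM (right panel) in each library of the 4 conditions; shapes are replicates, bars mean ± SD (n = 3), and the dotted line marks 1. The Fth1 to Tfrc ratio was 0.99 to 1.07 in the 6 libraries without IACS-010759 and 1.54 to 1.66 in the 6 with it.

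Ireb2, which encodes the iron regulatory protein with no enzyme activity of its own (chr9:54863789-54912530), was lowest where both treatments met. Its RPKM was 5.11, 4.91 and 4.92 in untreated cells, 4.98, 5.95 and 5.05 in OHT, 5.37, 5.47 and 4.01 in IACS, and 3.89, 3.75 and 4.1 in OHT_IACS. The OHT_IACS libraries were below all untreated and OHT libraries, and overlapped IACS through its replicate 3. Against OHT the gene fell by 0.43 (SE 0.1, to 0.74 of the OHT level, limma adjusted p = 0.0072), in all 18 other settings with limma adjusted p-values of at most 0.031. Against IACS it was lower by 0.31 in OHT_IACS (a log2 fold change of -0.31, SE 0.1, limma adjusted p = 0.031), a call lost in 6 of 17 other settings, among them the omission of IACS replicate 1 or 2 or of OHT_IACS replicate 1 or 2 (-0.25 to -0.31, limma adjusted p-values 0.074 to 0.13). In nonprimed cells the response to the inhibitor was -0.05 (SE 0.1, limma adjusted p = 0.77). The difference between the primed and the nonprimed response was -0.38 (SE 0.14, unadjusted p = 0.016, limma adjusted p = 0.29), so a differing response was not shown.

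The proteins that turn Ireb2 protein over were measured through their transcripts. Fbxl5, the iron-sensing adaptor that marks iron regulatory proteins for degradation, was at 2.95 to 3.64 RPKM and was called in no comparison (-0.16 to -0.04, limma adjusted p-values 0.17 to 0.77). Of the 3 tested genes in this list of 4, Ireb2 fell and Herc2 rose in OHT_IACS against OHT (0.41, limma adjusted p = 0.03), and Ireb2 was lower in OHT_IACS than in IACS. The rise of Herc2, a ubiquitin ligase, was 0.14 without OHT replicates 1 and 3 (limma adjusted p = 0.55) and was not called without OHT replicate 1 (0.27), OHT replicate 3 (0.42), OHT_IACS replicate 1 (0.38) or OHT_IACS replicate 3 (0.39). Aco1, the other iron regulatory protein, which is an aconitase when it holds its iron-sulfur cluster (chr4:40143081-40198338), counted 3, 6 and 4 reads in untreated cells, 0, 8 and 4 in OHT, 1, 2 and 0 in IACS, and 4, 0 and 3 in OHT_IACS. These counts do not allow a comparison.

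**Figure D4:**
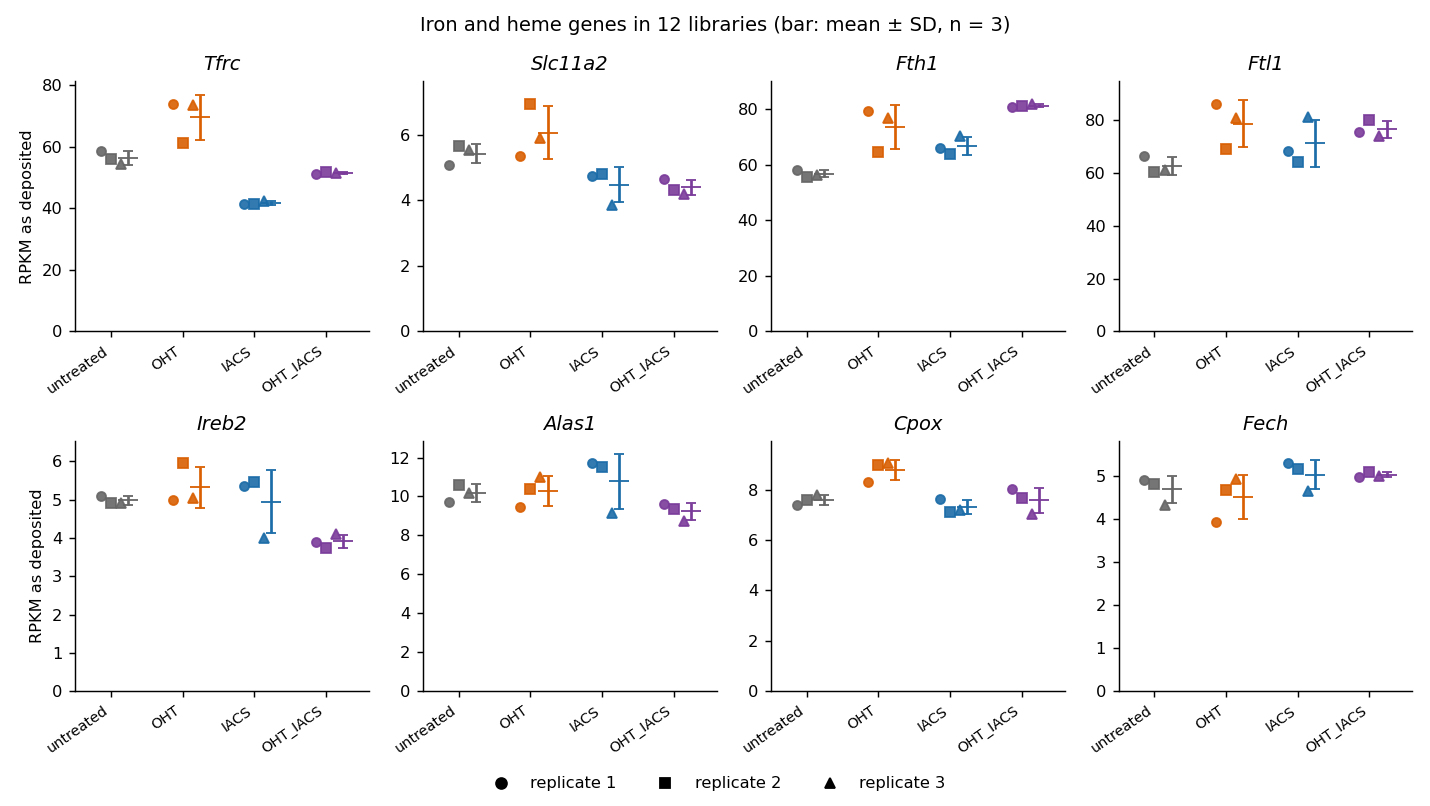
RPKM as deposited (vertical axis, from 0) of the 8 tested genes in each of the 12 libraries, by condition; shapes are replicates and bars mean ± SD (n = 3). Tfrc and Slc11a2 are lower in IACS and OHT_IACS, Fth1 is highest in OHT_IACS at 80.7 to 82.0, and Ireb2 is lowest in OHT_IACS except for IACS replicate 3 at 4.01.

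Of the heme synthesis members, Cpox changed and Alas1 and Fech did not pass in any of the 4 comparisons in the main fit. Cpox (chr16:58670292-58717636) had an RPKM of 7.37, 7.58 and 7.78 in untreated cells, 8.31, 8.97 and 9.04 in OHT, 7.63, 7.12 and 7.2 in IACS, and 8.02, 7.68 and 7.02 in OHT_IACS. The 3 OHT libraries were above all others. Cpox rose with OHT by 0.19 (SE 0.06, 1.14-fold, limma adjusted p = 0.018) and in primed cells fell with IACS-010759 by 0.21 (SE 0.06, limma adjusted p = 0.016). The rise had the same size with the covariate and without untreated replicate 1, without OHT replicate 3, or without OHT replicates 1 and 3 (0.17 to 0.2), but did not pass (limma adjusted p-values 0.06 to 0.11). The fall did not pass without OHT replicate 3 (-0.2), without OHT_IACS replicate 3 (-0.17) or without OHT replicates 1 and 3 (-0.22), with limma adjusted p-values of 0.052, 0.072 and 0.12.

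Alas1, the rate-limiting step in cells outside the red lineage (chr9:106233455-106248654), had an RPKM of 9.71, 10.6 and 10.2 in untreated cells, 9.45, 10.4 and 11 in OHT, 11.7, 11.5 and 9.14 in IACS, and 9.6, 9.37 and 8.76 in OHT_IACS. The conditions overlapped in every comparison, and IACS replicate 3 stood below the other two of its group. OHT gave a log2 fold change of -0.01 (SE 0.07, limma adjusted p = 0.93). OHT_IACS against IACS gave -0.21 (SE 0.07, limma adjusted p = 0.051), and -0.3 without IACS replicate 3 (limma adjusted p = 0.0031). That difference was called in 4 of 17 other settings. Besides this omission these were a filter of at least 5 RPKM (-0.21, limma adjusted p = 0.048), quantile normalization (-0.2, limma adjusted p = 0.041) and limma voom on the recovered reads (-0.22, adjusted p = 0.037). Fech ran from 3.93 to 5.29 RPKM over the 12 libraries, with log2 fold changes of -0.08 to 0.16 and limma adjusted p-values of 0.15 to 0.96. Its condition means were 4.68 ± 0.315 (SD, n = 3) in untreated cells, 4.51 ± 0.52 in OHT, 5.03 ± 0.334 in IACS and 5.03 ± 0.0642 RPKM in OHT_IACS.

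Other enzymes of the pathway stood at different levels from these members. Alad and Urod, which carry out early and middle steps in the cytosol, had untreated means of 33.6 and 34.7 RPKM, whereas Uros and Ppox were at 4.02 and 3.96 RPKM. Of the 7 listed enzymes that were tested, members included, 1 rose (Cpox) and 1 fell (Alad, -0.16, limma adjusted p = 0.023) with OHT, and 1 fell with IACS-010759 alone (Ppox). In OHT-primed cells 2 fell with IACS-010759 (Cpox and Ppox), and between OHT_IACS and IACS 2 were lower (Alad and Uros). The shares of all genes called in these comparisons were 36.4%, 15.9%, 23.7% and 26.5%, so the counts of 2, 1, 2 and 2 of 7 stood near or below the general rate. The call for Alad with OHT was lost without untreated replicate 1 or 2 or without OHT replicate 2 (-0.13 to -0.16, limma adjusted p-values 0.051 to 0.066). Medians over the list were -0.1, -0.07, -0.16 and -0.06 on the log2 scale, beside 0.01, 0.0, -0.01 and 0.0 over all genes. Ppox, protoporphyrinogen oxidase, the step between Cpox and Fech, had an RPKM of 4.15, 3.81 and 3.92 in untreated cells, 3.49, 3.86 and 3.67 in OHT, 2.69, 3.24 and 2.76 in IACS, and 2.12, 3.16 and 3.07 in OHT_IACS. All its libraries with the inhibitor were below all those without it. The fall was 0.47 (SE 0.13, limma adjusted p = 0.022) in nonprimed and 0.41 (SE 0.13, limma adjusted p = 0.032) in OHT-primed cells. The latter was lost without OHT replicate 1, 2 or 3 or OHT_IACS replicate 1 (-0.23 to -0.42, limma adjusted p-values 0.063 to 0.11) and without OHT replicates 1 and 3 together (-0.46, limma adjusted p = 0.17). The former was lost with the library total as a covariate (-0.45, limma adjusted p = 0.051). It was also lost without untreated replicate 1 or 3 or without IACS replicate 1 or 3 (-0.41 to -0.48, limma adjusted p-values 0.055 to 0.084). Uros was 0.49 lower in OHT_IACS than in IACS (a log2 fold change of -0.49, SE 0.11, limma adjusted p = 0.0046), with values of 2.92, 3.12 and 2.21 against 4.21, 3.98 and 3.49 RPKM.

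**Figure D5:**
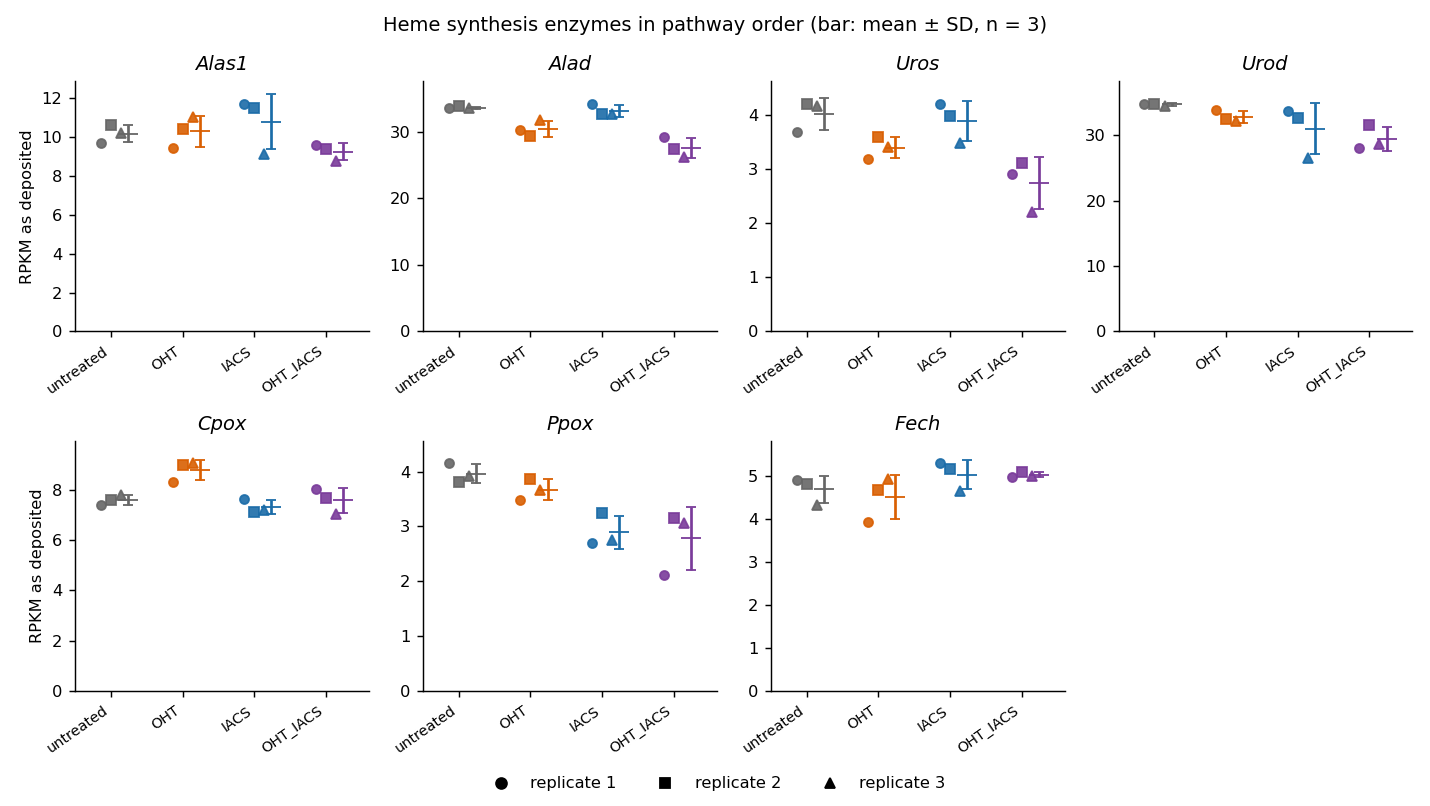
RPKM as deposited (vertical axis, from 0) of 7 heme synthesis enzymes in pathway order, in each library of the 4 conditions; shapes are replicates and bars mean ± SD (n = 3). Alad and Urod lie at 26.2 to 34.8 RPKM and the others at 11.7 RPKM or less, and Ppox is at 2.12 to 3.24 with IACS-010759 and 3.49 to 4.15 without it.

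In the wider iron and heme network, 7 lists held 84 genes, of which 58 besides the members were tested. With OHT 6 of the 58 rose (10.3%) and 8 fell (13.8%), beside 18.1% and 18.2% of all genes. With IACS-010759 in nonprimed cells 5 rose (8.62%) and 5 fell (8.62%), beside 8.15% and 7.74%. With IACS-010759 in OHT-primed cells 6 rose (10.3%) and 9 fell (15.5%), beside 11.9% and 11.7%, and between OHT_IACS and IACS 6 were higher (10.3%) and 11 lower (19.0%), beside 12.3% and 14.2%. Their medians were between -0.04 and 0.0 on the log2 scale.

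Among the uptake genes the second transferrin receptor went the other way from Tfrc with OHT in the main fit. The rise of Tfrc was less firm, at 0.09 with the library total as a covariate (limma adjusted p = 0.13). Tfr2, which senses transferrin iron in liver and red cell precursors, had an RPKM of 2.78, 2.81 and 3.07 in untreated cells, 1.01, 1.43 and 1.14 in OHT, 2.77, 2.48 and 2.48 in IACS, and 1.26, 1.12 and 1.54 in OHT_IACS. Every OHT-primed library was below every nonprimed one. It fell with OHT by 1.24 (SE 0.14, limma adjusted p = 1.7e-05) and was lower in OHT_IACS than in IACS at a log2 fold change of -0.93 (SE 0.14, limma adjusted p = 0.00026), in all other settings tried. Steap3, the endosomal reductase that prepares iron for Slc11a2, fell with OHT by 0.48 (SE 0.08, limma adjusted p = 0.00061), and by 0.32 without OHT replicates 1 and 3 (limma adjusted p = 0.056). Its difference between OHT_IACS and IACS was -0.46 (limma adjusted p = 0.0012). Slc39a8, a metal transporter that also carries iron, was lower in OHT_IACS than in IACS (-0.61, SE 0.1, limma adjusted p = 0.00064). Trf, transferrin itself, rose with OHT by 0.25 (limma adjusted p = 0.02), a call lost with the covariate (0.29, limma adjusted p = 0.059), without OHT replicates 1 and 3 (0.22, limma adjusted p = 0.16), without untreated replicate 1 (0.18) and without OHT replicate 3 (0.19). Mcoln1, a lysosomal channel that releases iron, rose with IACS-010759 by 0.29 in nonprimed (limma adjusted p = 0.02) and by 0.36 in primed cells (limma adjusted p = 0.0052). The former did not pass without untreated replicate 1 or 2 or IACS replicate 1 (0.25 to 0.29, limma adjusted p-values 0.065 to 0.088). Without OHT replicates 1 and 3 the value in primed cells was 0.37 and was not called (limma adjusted p = 0.053).

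Around ferritin, Pcbp1, a chaperone that hands iron to it, was higher in OHT_IACS than in IACS by 0.29 (SE 0.06, limma adjusted p = 0.0031). Ncoa4, the receptor that takes ferritin to the lysosome, was at 41.1 to 55.5 RPKM and lower in OHT_IACS than in IACS (-0.25, SE 0.06, limma adjusted p = 0.013). Slc40a1, the iron exporter ferroportin, was listed at 0 in every library and was not measured.

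Genes of heme breakdown and transport were measured as well. Hmox1, the inducible heme oxygenase that releases iron from heme, had an RPKM of 10.6, 10.9 and 12.8 in untreated cells, 15.7, 18.2 and 18.3 in OHT, 17, 16.9 and 13.5 in IACS, and 18.1, 21.0 and 19.8 in OHT_IACS. All treated libraries were above all untreated ones. It rose by 0.58 with OHT (SE 0.08, limma adjusted p = 0.00015) and by 0.43 with IACS-010759 (SE 0.08, limma adjusted p = 0.0039), in all other settings tried, and the interaction was -0.26 (limma adjusted p = 0.39). Bach1, the heme-binding repressor of Hmox1, was at 3.22 to 4.4 RPKM and called in no comparison, as was Eif2ak1, the heme-regulated kinase, at 9.45 to 11.3 RPKM. Lonp1, a mitochondrial protease whose substrates include Alas1 protein, rose with OHT by 0.28 (limma adjusted p = 0.0006), with IACS-010759 by 0.2 (limma adjusted p = 0.015), and was 0.24 higher in OHT_IACS than in IACS (limma adjusted p = 0.0025). The rise with IACS-010759 did not pass without untreated replicate 2 or IACS replicate 3, at 0.17 in each case. Slc48a1, a heme transporter of endosomes and lysosomes, fell with OHT by 0.34 (SE 0.04, limma adjusted p = 6.3e-05) and rose with IACS-010759 in OHT-primed cells by 0.22 (limma adjusted p = 0.0034).

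On the mitochondrial side, Abcb10, an inner membrane transporter needed for heme synthesis, fell with IACS-010759 by 0.42 in nonprimed (SE 0.06, limma adjusted p = 0.0008) and, in OHT-primed cells, by 0.27 (SE 0.06, limma adjusted p = 0.0091), and was 0.3 higher in OHT_IACS than in IACS (limma adjusted p = 0.0037). The fall in primed cells did not pass without OHT replicates 1 and 3 (-0.19, limma adjusted p = 0.22). Isca1, a factor of iron-sulfur cluster assembly, fell by 0.25 (limma adjusted p = 0.0039) and by 0.29 (limma adjusted p = 0.0013) in the same comparisons, in all other settings tried. Hscb, the cochaperone of that assembly, rose with IACS-010759 in nonprimed cells by 0.42 (limma adjusted p = 0.0097), and was lower in OHT_IACS than in IACS (-0.34, limma adjusted p = 0.018). Its interaction was not called (-0.25, limma adjusted p = 0.47). Fdxr, which supplies electrons for the assembly, gave 0.2 in nonprimed cells (limma adjusted p = 0.054), with an interaction of 0.04 (limma adjusted p = 0.71). Nubp2, a scaffold of the cytosolic assembly, gave -0.14 in nonprimed cells (limma adjusted p = 0.14). In OHT-primed cells Fdxr rose by 0.24 (limma adjusted p = 0.02), and Nubp2 fell by 0.24 (limma adjusted p = 0.012). Neither passed without OHT replicates 1 and 3 (0.25 and -0.18, limma adjusted p-values 0.15 and 0.19), and the call for Fdxr was also lost without OHT replicate 3 (0.23) and without OHT_IACS replicate 2 (0.18). The mitoferrins, which import iron into mitochondria, ran from 5.96 to 8.68 RPKM (Slc25a37) and from 10.7 to 12.9 RPKM (Slc25a28), and only Slc25a28 in OHT_IACS against OHT was called (0.15, limma adjusted p = 0.042). That call was lost with the replicate number as a block (0.15, limma adjusted p = 0.058), without OHT replicate 1 or 3 or OHT_IACS replicate 1 or 3 (0.12 to 0.14, limma adjusted p-values 0.11 to 0.13), and without OHT replicates 1 and 3 together (0.07, limma adjusted p = 0.53).

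Genes whose pattern over the 12 libraries was most like that of a member were listed for members whose 4 condition means spanned at least 0.5 on the log2 scale, which only Tfrc did (0.737). By the root mean square difference of log2 values centred on each gene's own mean, the nearest were Utp14b and Fdps, both at 0.079, beside 0.279 for Tfrc about its own mean. Fdps, farnesyl diphosphate synthase of the sterol pathway, had condition means of 56.5, 69.2, 45.5 and 56.3 RPKM in untreated, OHT, IACS and OHT_IACS cells, and was high in the same OHT libraries as Tfrc (73.3, 61.5 and 72.8 RPKM). Utp14b, a factor of ribosome assembly, had means of 15.3, 18.5, 11.2 and 14 RPKM, and its OHT libraries lay together at 18.2, 18.5 and 18.8 RPKM.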

How the data were processed

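RNA was taken from FL5.12 MycER cells, depleted of ribosomal RNA and made into stranded libraries. The submitters' processing notes name TopHat2 2.0.8, SAMtools, featureCounts 1.4.5-p1 and DESeq2, and the build mm9. The authors deposited RPKM per gene for 12 libraries, 3 for each of 4 conditions as the labels give them, and 6 columns of their own comparisons (DESeq2 log2 fold changes with their adjusted p-values), which were not used. Whole reads, gene lengths and library totals were recovered from the steps of the RPKM values for 15451 of 15451 genes above 0 (whole within 0.001 reads). Library totals were 10376530 to 14550158.

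RPKM are not counts, so they were compared with limma 3.58.1 in R 4.3.3 on log2(RPKM + 0.1), after scaling each library by its median ratio to the genes' geometric means. Fold changes on this scale understate those of low genes. Whether those of densely covered genes, whose reads levelled off, are understated too was not tested. The filter of 1 RPKM or more in 3 or more libraries left 9745 genes, tested in 1 fit of all libraries with a mean-variance trend. P-values were two-sided and adjusted by Benjamini-Hochberg in each comparison. On simulated data for the OHT comparison, 196 of 200 genes with a log2 change of size 1 were called, and 7 of 9413 unchanged genes, over 9613 genes. The simulated reads grew in proportion to the totals, with the same spread setting for all genes and libraries, which the real reads did not. The rate of false calls in the simulation therefore does not carry over to the real OHT comparison. The rises of members called with OHT were smaller, 0.19 to 0.35, and how often changes of that size are called was not tested. Between replicates the chi-square per gene, 1 for sampling noise, was 1.02 to 4.84 over all genes and 1.08 to 1.88 over genes under 0.1 reads per base. IACS replicates 1 and 2 had the 1.02, within sampling noise over all genes, but 1.09 over the latter genes, above it, and were kept as separate libraries with different totals. The study's methods call the replicates biological, and the labels do not say that cultures were separate, so p-values measure the spread between these libraries.

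The members, the 7 iron and heme lists and 3 marker lists were chosen with earlier results of these data known, and a few of their genes are not reported here. All members are named. From the lists, the 3 genes with the smallest adjusted p called in each direction of each comparison are named, with a set list of iron and heme genes and Myc. Alternatives were other pseudocounts, filters and scalings, a replicate block, the library total as a covariate, limma voom on the recovered reads, and the omission of each library. The omission of OHT replicates 1 and 3 together was added after seeing the data, the remaining OHT library then being assumed to vary like the others. Sequences were read from GENCODE vM21 (GRCm38) and RefSeq. Tables were made in Python 3.11.15 with pandas 2.3.3 and numpy 2.4.6, figures with matplotlib 3.10.9.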

Additional observations from a re-analysis of the deposited data

How the results depend on the processing

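Of 13 called member results, 185 of 229 recalculations under the other settings kept the call and 44 lost it, and none changed sign. Of 27 member results not called, 12 of 515 recalculations gained a call and 27 changed sign. The number of members called with OHT was 4 (Tfrc, Fth1, Ftl1 and Cpox). With the library total as a covariate it was 2: of the 4 only Fth1 kept its call, and Slc11a2 gained one. It was 2 with only the groups compared in the fit, and 1 to 4 when single libraries were left out. Without OHT replicates 1 and 3 the rises of Tfrc, Fth1, Ftl1 and Cpox were 0.07, 0.14, 0.09 and 0.2. The number called with IACS-010759 in nonprimed cells was 2, and 1 with no filter on low values and 1 to 2 when single libraries were left out. Between OHT_IACS and IACS 3 were called, and 1 to 4 when single libraries were left out. With IACS-010759 in OHT-primed cells 4 were called, and 3 to 4 when single libraries were left out.

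Changes of sign reached values of -0.07 to 0.17. With the library total as a covariate, Alas1 was 0.09 with OHT, Ftl1 was -0.01 and Ireb2 0.06 with IACS-010759, Slc11a2 was 0.05 in OHT_IACS against IACS, and the interaction was 0.09 for Fth1 and 0.001 for Ftl1. Alas1 with OHT was 0.01 on RPKM as deposited and with quantile normalization, and the interaction of Fth1 was 0.02 with quantile normalization. Without OHT replicates 1 and 3, Ftl1 was 0.17 in OHT_IACS against OHT, and the interaction was 0.15 for Fth1 and 0.02 for Ftl1. When single libraries were left out, the ranges that held a change of sign were, with OHT, -0.05 to 0.03 for Alas1 (above 0 without untreated replicate 2, 0.02, and OHT replicate 1, 0.03) and -0.001 (without OHT replicate 2) to 0.12 for Ireb2. With IACS-010759 they were -0.12 to 0.07 for Ireb2 (above 0 without IACS replicate 3) and -0.001 (without IACS replicate 1) to 0.14 for Alas1. In OHT_IACS against OHT, Ftl1 ran from -0.14 to 0.05 (above 0 without OHT replicate 1). In OHT_IACS against IACS, Slc11a2 ran from -0.1 to 0.03, being 0.02, 0.03, 0.01 and 0.01 without IACS replicates 1 and 2 and OHT_IACS replicates 2 and 3, and Fech from -0.03 (without IACS replicate 3) to 0.03. The interaction ran from -0.07 to 0.10 for Tfrc (-0.002 without untreated replicate 1, -0.07 without OHT replicate 2) and from -0.15 to 0.02 for Fth1 (0.02 without OHT replicate 1, 0.01 without IACS replicate 3). The cause of these changes was not tested.

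Replicate numbers did not pair the libraries: over 18 pairs with the same number, deviations from the group means correlated at -0.17 to 0.1. A fit with the replicate number as a block called 4, 2, 4, 3 and 0 members in the 5 comparisons, as without the block. The calls of other named genes were kept under the block, except that of Slc25a28 in OHT_IACS against OHT (0.15, limma adjusted p = 0.058). Reads per library were 136 to 557 for Fech, Ireb2 and Slc11a2.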
